A study of Mus musculus with 24 samples.

Results

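The genes for the type 2 cytokines Il4, Il5 and Il13 and for Il10 and Il24 were followed across 24 microarrays of mouse T helper cells. These genes were chosen by name, as the signature products of Th2 cells together with Il10 and its relative Il24. Each had 1 probe, so the members were 5 of 20028 named genes and 5 of 55681 probes. The study compared Th1 and Th2 cells, differentiated in vitro from C57BL/6 female mice, in the unstimulated state and after reactivation. The cells had received DMSO as vehicle, JQ1 at 50 or 500 nM, or flavopiridol at 1 or 10 µM. JQ1 displaces BET bromodomain proteins from acetylated chromatin, and flavopiridol inhibits the kinase P-TEFb, which releases paused RNA polymerase II into elongation. Treatment lasted 6 hr in most conditions, and for Th1 cells the DMSO and 500 nM JQ1 conditions had a further set at 24 hr. There were 14 Th1 and 10 Th2 arrays, 1 for each combination of cell type, state, drug, dose and time. On every array the T helper sample was labelled with Cy3 and RNA of naive CD4+ T cells (CD62L+CD25-CD44lo, from lymph nodes and spleens) with Cy5, with no dye swap. For Th2 cells with DMSO, one label field reads 24 hr and another 6 hr. Their time is therefore unclear wherever they served as the 6 hr control. The labels name no mouse numbers, pools or separate cultures, and the stimulus used for reactivation is not given in the sources used here.

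Naive CD4+ T cells that differentiate in the presence of IL-4 switch on Gata3 and become Th2 cells, which on renewed antigen contact secrete IL-4, IL-5 and IL-13. IL-4 drives B cell class switching and further Th2 differentiation, IL-13 acts on epithelium, mucus and smooth muscle, and IL-5 supports eosinophils. IL-10 restrains inflammation and is made by several T helper types, including Th1 cells, and IL-24 belongs to the same family. Il4, Il13 and Il5 lie together on chromosome 11 in a shared locus with the DNA repair gene Rad50, and Il10 and Il24 lie on chromosome 1.

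The start regions of the chromosome 11 genes are shown because these genes rose together on reactivation. The RefSeq promoter table of build GRCm38.p6 held 3 of the 5 members, Il4, Il5 and Il13. The 250 bases before the annotated start are printed 5′ to 3′ on the strand of the gene, and capitals mark the motif letters found on either strand: the NFAT core GGAAA, the GATA motif AGATAA, the STAT6 motif (an inverted TTC/GAA repeat), the AP-1 motif TGANTCA and the TATA box TATAAA. Il13 lies at chr11:53634703-53634952 (minus strand), Il4 at chr11:53618666-53618915 (minus strand) and Il5 at chr11:53720544-53720793 (plus strand). The table lists another start for Il4, with a window at chr11:53617339-53617588 that held none of these motifs and is not printed.
Il13: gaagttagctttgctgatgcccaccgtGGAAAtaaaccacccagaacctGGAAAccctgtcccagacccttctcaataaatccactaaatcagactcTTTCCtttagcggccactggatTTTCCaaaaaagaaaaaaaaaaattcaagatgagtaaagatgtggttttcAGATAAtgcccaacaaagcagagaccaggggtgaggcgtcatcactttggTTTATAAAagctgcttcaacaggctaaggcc
Il4: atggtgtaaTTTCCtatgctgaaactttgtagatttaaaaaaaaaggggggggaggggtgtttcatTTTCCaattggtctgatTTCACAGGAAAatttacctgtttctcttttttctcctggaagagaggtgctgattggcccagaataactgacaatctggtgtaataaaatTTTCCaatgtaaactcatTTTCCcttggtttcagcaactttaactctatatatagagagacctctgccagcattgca
Il5: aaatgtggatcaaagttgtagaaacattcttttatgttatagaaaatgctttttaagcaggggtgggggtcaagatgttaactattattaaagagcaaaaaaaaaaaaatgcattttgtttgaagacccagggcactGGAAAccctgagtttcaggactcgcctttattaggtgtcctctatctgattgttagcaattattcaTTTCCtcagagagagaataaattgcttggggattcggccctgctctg
The NFAT core, bound by the calcium-dependent factors that follow T cell receptor signalling, occurred 5 times before the printed Il4 start, 4 times before Il13 and 2 times before Il5. It occurred in 55.6% of all 32851 promoter windows of this length, so its presence alone is common. The GATA motif occurred 1 time, before Il13, 81 bases upstream of the start, and 9.99% of all windows held it. The STAT6 motif occurred 1 time, before Il4, where it overlaps one of the NFAT cores, and 5.85% of windows held it. The TATA box was found before Il13 only among these windows, as overlapping matches on both strands (12.4% of windows), and the AP-1 letters in none of them (6.75%). These matches describe letters in a window and are not measured binding sites.

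Levels are given as the log2 ratio of the T helper sample over the naive reference, so 0 is the naive level and each unit is a doubling. The naive reference gave next to no Il4, Il5, Il13 or Il10 signal. Its Cy5 signal was well above background, by the scanner software's test, on 2, 2, 3 and 1 of 24 arrays in that order, and for Il24 on all 24. In Cy3 the probes were well above background on 15 arrays for Il4, 10 for Il5, 14 for Il13, 16 for Il10 and 16 for Il24. The Il4 and Il10 probes were printed as 10 spots each, whose SD within an array was 0.04 to 0.39 and 0.05 to 0.23 (log2), and the others as 1 spot. With 1 array per condition, a single pair of arrays has no replicate error. Across the series, 35.5% to 52.0% of probes were well above background in Cy3, with at most 41.5% on the flavopiridol arrays and at least 43.8% on the others. Between any 2 arrays the naive reference differed with an SD of 0.18 (log2, median of 276 pairs). An added offset in the background correction pulls dim ratios towards 0, so small values understate the change.

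Il4, the defining Th2 cytokine, was already present in unstimulated Th2 cells and rose further on reactivation. In DMSO its log2 ratio was 0.12 in unstimulated and 3.07 in reactivated Th1 cells at 6 hr, 0.20 and 4.49 in the same states of Th1 cells at 24 hr, and 3.52 and 8.02 in unstimulated and reactivated Th2 cells. The order from high to low was therefore reactivated Th2, reactivated Th1 at 24 hr, unstimulated Th2, reactivated Th1 at 6 hr, and both unstimulated Th1 arrays, which were not well above background. Unstimulated Th2 and reactivated Th1 cells at 6 hr, neighbours in that order, differed by 0.45 with no replicate array to judge it. By Cy3 signal alone, reactivated Th2 cells held 51.3-fold more Il4 than reactivated Th1 cells on the same slide. The difference in log2 ratio, 4.95, is smaller, and the Cy5 signal of the reference also read higher on the Th2 array, at 116.5 against 54 units. Reactivation raised the Cy3 signal 34.8-fold in Th2 cells, and at least 5.88-fold at 6 hr and at least 14.6-fold at 24 hr in Th1 cells, where the unstimulated arrays give only a bound.

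Il13 was inducible in both lineages. In DMSO its log2 ratio was 0.23 in unstimulated and 3.70 in reactivated Th1 cells at 6 hr, 0.44 and 4.60 at 24 hr, and 1.07 and 4.84 in Th2 cells. The 3 reactivated arrays stood above all 3 unstimulated arrays, and the 24 hr Th1 and the Th2 reactivated arrays differed by 0.24 with no replicate to judge it. Cy3 in reactivated Th2 cells was 4.30-fold that of reactivated Th1 cells on the same slide, far less than the contrast for Il4.

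Il5, the eosinophil factor, was clearly above background in reactivated Th2 cells and near it elsewhere. In DMSO its log2 ratio was 0.03 and 0.45 in unstimulated and reactivated Th1 cells at 6 hr, 0.14 and 0.68 at 24 hr, and 0.10 and 3.66 in Th2 cells. Reactivated Th1 cells were just above background, with Cy3 signals of 40 and 52 units over a local background of 20 and 25, against 777 units in reactivated Th2 cells. The Th2 signal was 10.5-fold that of Th1 cells at 6 hr.

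Il10, the regulatory cytokine, was the one member whose level was not highest in Th2 cells. In DMSO its log2 ratio was 0.38 in unstimulated and 2.85 in reactivated Th1 cells at 6 hr, 0.22 and 3.56 at 24 hr, and 0.22 and 2.33 in Th2 cells. All 6 arrays were above background and the 3 reactivated arrays did not overlap the unstimulated ones. Reactivation raised the Cy3 signal 5.04-fold in Th1 cells at 6 hr, 8.95-fold at 24 hr and 3.78-fold in Th2 cells, and the reactivated Th1 signal at 6 hr was 1.42-fold the Th2 signal.

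Il24, like Il5, had its highest level in reactivated Th2 cells. In DMSO its log2 ratio was -0.48 in unstimulated and 0.81 in reactivated Th1 cells at 6 hr, -0.14 and 0.55 at 24 hr, and -0.26 and 2.83 in Th2 cells. The unstimulated cells lay below the naive reference and the reactivated Th2 cells well above it. Cy3 in reactivated Th2 cells was 17.0-fold that of unstimulated Th2 cells and 6.69-fold that of reactivated Th1 cells.

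**Figure D1:**
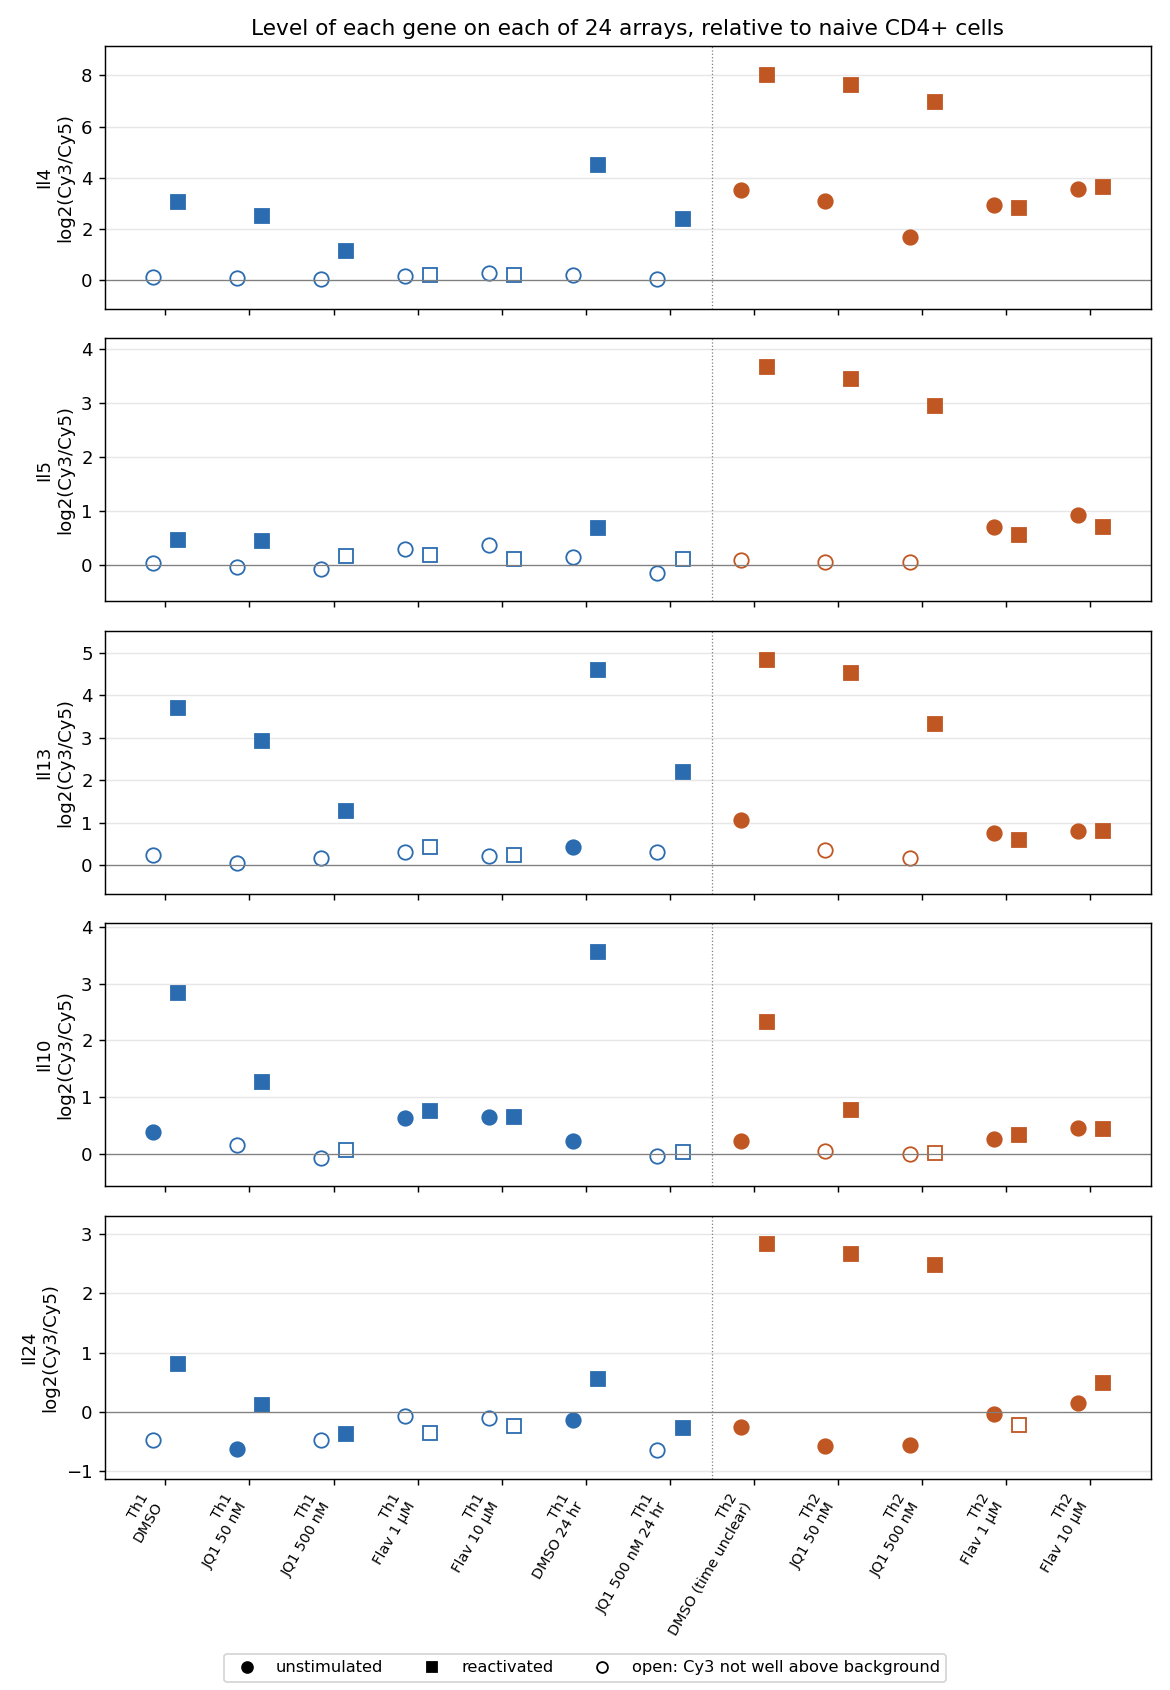
Log2 ratio of Cy3 (T helper sample) over Cy5 (naive reference) for the 5 genes, 1 panel per gene, on all 24 arrays by cell type and treatment. Points stand for single arrays, coloured by cell type and shaped by state, with open symbols where Cy3 was not well above background, and the Il4 and Il5 points of reactivated Th2 cells under DMSO and JQ1 stand clear of all Th1 points.

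Reactivation was tested first within the 3 pairs of DMSO arrays, with the pair as a block. Il4 was higher by 3.92 ± 0.30 (SE, log2, adjusted p = 0.000292), Il13 by 3.81 ± 0.16 (adjusted p = 0.000118), Il10 by 2.64 ± 0.24 (adjusted p = 0.000442) and Il24 by 1.68 ± 0.42 (adjusted p = 0.0166). Each of these rose in 3 of 3 pairs, and with no block Il4 missed (adjusted p = 0.0605). Il5 was higher in 3 of 3 pairs as well, by 1.51 ± 0.59, and missed the threshold (adjusted p = 0.0741). Thus 4 of 5 members passed, where 51% of all genes tested did, so the count itself is not particular to these cytokines, and the median difference was 2.64 against -0.05 over all genes. Il5 passed when the spike-in controls set the scale, in place of loess (1.55, adjusted p = 0.00568) or after it (1.80, adjusted p = 0.0242). It also passed by the scanner software's ratio (2.20, adjusted p = 0.0326). In these settings 46.1%, 49.4% and 47.1% of all genes passed in that order. These p-values, here and below, come from limma with Benjamini-Hochberg adjustment over all genes tested, and the contexts or treatments of single arrays stand in for replicates.

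Reactivation was then tested within each cell type over 3 treatments (DMSO, 50 nM and 500 nM JQ1). In Th2 cells Il4 rose by 4.78 ± 0.32 (adjusted p = 8.23e-06), Il13 by 3.70 ± 0.40 (adjusted p = 9.15e-05), Il5 by 3.28 ± 0.13 (adjusted p = 1.17e-06) and Il24 by 3.12 ± 0.19 (adjusted p = 5.69e-06). That is 4 of 5 members, against 61.2% of genes. In Th1 cells Il13 rose by 2.49 ± 0.40 (adjusted p = 0.00125), Il4 by 2.16 ± 0.32 (adjusted p = 0.000809), Il24 by 0.70 ± 0.19 (adjusted p = 0.0153) and Il5 by 0.38 ± 0.13 (adjusted p = 0.0428). This was again 4 of 5, against 50.6% of genes. Il10 was the exception in both, with 1.24 ± 0.47 in Th1 (adjusted p = 0.0568) and 0.94 ± 0.47 in Th2 cells (adjusted p = 0.114). With 500 nM JQ1 its reactivated arrays read 0.06 and 0.01 and its unstimulated arrays -0.07 and 0.00. Without the 500 nM JQ1 pairs it rose by 1.79 in Th1 (adjusted p = 0.00154) and 1.41 in Th2 cells (adjusted p = 0.00468). The small Th1 changes of Il5 and Il24 lost their call without the DMSO pair (0.36, adjusted p = 0.135, and 0.42, adjusted p = 0.114) and without the 50 nM JQ1 pair (0.33, adjusted p = 0.257, and 0.69, adjusted p = 0.124), and that of Il5 turned to -0.05 when the spike-in controls set the scale after loess.

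By fitted log2 ratio, the reactivation effect was larger in Th2 cells for 3 of 5 members. Il4 was not well above background on any unstimulated Th1 array, so its rise there may be understated and the Th2 excess overstated. Il5 was not well above background on any unstimulated array of this fit. Nor was Il24 on the unstimulated Th1 arrays with DMSO and 500 nM JQ1. The reactivation effect in Th2 exceeded that in Th1 cells by 2.90 ± 0.19 for Il5 (adjusted p = 0.000423), 2.62 ± 0.45 for Il4 (adjusted p = 0.0159) and 2.42 ± 0.27 for Il24 (adjusted p = 0.00385), each in 3 of 3 treatments, where 7.89% of genes passed. For Il13 the difference was 1.21 with a 95% interval of -0.08 to 2.51, and for Il10 -0.29 with an interval of -1.82 to 1.23, so neither was resolved. With the 50 nM JQ1 arrays left out none of the 5 passed, where 0.103% of genes did (Il4 2.87, adjusted p = 0.260, Il5 2.90, adjusted p = 0.0580, Il24 2.37, adjusted p = 0.175). With no block Il4 missed (adjusted p = 0.123). By the scanner software's ratio none passed, where 3.92% of genes did, and Il4 turned to -2.98 (adjusted p = 0.0575). Without the DMSO arrays Il4 missed at 3.16 (adjusted p = 0.0558), and without the 500 nM JQ1 arrays Il13 passed at 0.80 (adjusted p = 0.0333).

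Between the lineages, only Il4 passed in unstimulated Th2 against unstimulated Th1 cells, at 2.67 ± 0.28 (adjusted p = 8.33e-05), and 38.3% of genes differed. Il4 was not well above background on these Th1 arrays, so that size may be understated. The other members gave 0.39 ± 0.18 for Il13 (adjusted p = 0.117), 0.10 ± 0.09 for Il5, 0.06 ± 0.14 for Il24 and -0.06 ± 0.11 for Il10. Among these unstimulated arrays Il5 was well above background on none and Il13 only on the Th2 DMSO array, so a difference could hardly show. Il13 passed only when the 500 nM JQ1 arrays were left out (0.58, adjusted p = 0.0097), by Cy3 alone (adjusted p = 0.049) or in the authors' own value table (adjusted p = 0.043). After reactivation all 5 differed, where 28.8% of genes did. Il4 was higher in Th2 cells by 5.29 ± 0.28 (adjusted p = 1.90e-06), Il5 with a 95% interval of 2.79 to 3.21 (adjusted p = 5.37e-08), Il24 by 2.48 ± 0.14 (adjusted p = 2.66e-06) and Il13 by 1.60 ± 0.18 (adjusted p = 0.000176). By the scanner software's ratio Il13 gave 0.31 (adjusted p = 0.778), and with no block it missed (adjusted p = 0.135). Il10 went the other way and was lower in Th2 cells by a small amount, -0.35 ± 0.11 (adjusted p = 0.0317). That difference missed the threshold without the 50 nM JQ1 arrays (-0.28, adjusted p = 0.249) and under 4 other settings, and became 0.03 with the spike-in shift.

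The lineage labels were checked against their markers. Of 9 Th1 markers, 8 were lower in reactivated Th2 cells, among them Ifng (-2.91) and the Th1 master regulator Tbx21 (-2.99). Of 6 Th2 markers tested, 3 were higher, the master regulator Gata3 (3.16) and the chemokine receptors Ccr4 (1.42) and Ccr8 (1.34), and 1 was lower, Il1rl1, the IL-33 receptor (-1.34). The summed Cy3 signal of the Th2 markers was 7920 to 12850 in Th2 and 2276 to 7526 in Th1 cells with DMSO, but 1845 to 1883 in Th2 and 2218 to 3380 in Th1 cells with flavopiridol. The Th1 marker sums kept the order of the labels under flavopiridol, at 56200 or more in Th1 and 1063 to 4388 in Th2 cells, as did Il4. B cell markers also moved with the lineage: 4 of 5 were higher in reactivated Th2 cells (among them Ms4a1 at 2.45, Cd79b at 2.06 and Cd79a at 0.36), and the 4 were higher in the unstimulated state too. Their summed Cy3 signal ranged from 512 to 1486 over the Th1 arrays and from 1176 to 4817 over the Th2 arrays. Among DMSO arrays it was 1133 to 1486 in Th1 and 3599 to 4817 in Th2 cells, and it fell to 512 to 593 and 1176 to 1534 under flavopiridol. Of 4 Th17 markers, the summed signal was 3084 in reactivated Th2 cells with DMSO against 660 and 987 in reactivated Th1 cells, and Il17f was higher in reactivated Th2 cells by 1.93, 1 of 2 tested. The summed myeloid marker signal was 11680 to 15550 in Th1 and 15080 to 19260 in Th2 cells with DMSO, and 4632 to 7216 and 7352 to 13660 with flavopiridol. That of the CD8 T cell markers was 266 to 465 in Th1 and 174 to 237 in Th2 cells with DMSO, and 546 to 648 and 274 to 298 with flavopiridol. For the regulatory T cell (Treg) markers it was 632.9 to 2128 in Th1 and 1173 to 1503 in Th2 cells with DMSO. With JQ1 the Treg sum was 518.6 to 1684 and 683.5 to 1088, and with flavopiridol 1044 to 1371 and 1883 to 2278. The part of these cell types in the results was not tested. Of 6 markers of mast cells and basophils, other cells known to make IL-4 and IL-13, at most 2 were above background on any Th2 array, and Mcpt8, Cpa3, Ms4a2, Fcer1a and Mcpt4 were not well above background on any reactivated DMSO array. In bulk RNA, fewer producing cells and less RNA per cell cannot be told apart. For DMSO, Th1 and Th2 arrays shared a slide, and for JQ1 and flavopiridol they did not.

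**Figure D2:**
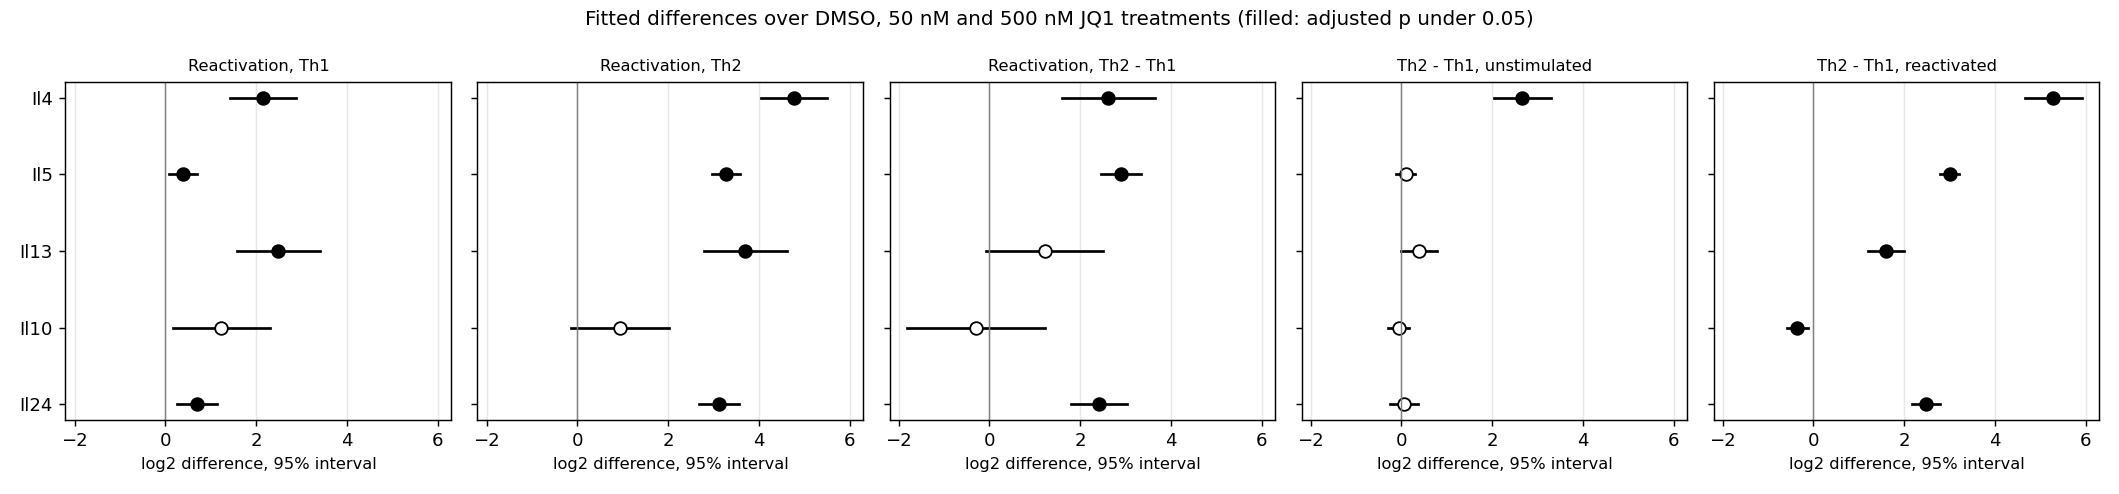
Fitted log2 differences with 95% intervals for the 5 genes, in panels for reactivation within each cell type, its difference between cell types, and Th2 against Th1 cells in each state. Filled points passed an adjusted p of 0.05. Il4, Il5 and Il24 stand furthest to the right between lineages after reactivation, and Il10 lies just left of 0.

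With flavopiridol, Il4, Il13 and Il10 in reactivated cells read near their unstimulated level, and the Il4 ratio of unstimulated Th2 cells stayed near that of DMSO on the loess scale. At 1 and 10 µM the Il4 log2 ratio was 2.83 and 3.62 in reactivated Th2 cells, against 8.02 with DMSO, and 2.93 and 3.57 in unstimulated Th2 cells, against 3.52. In Th1 cells it was 0.19 and 0.21 after reactivation, against 3.07, and 0.18 and 0.28 unstimulated, so none of the 4 Th1 arrays was well above background. Before scaling, the Il4 Cy3 signal of unstimulated Th2 cells was 153.75 and 206.5 units at 1 and 10 µM, against 460 with DMSO, and the median log2 ratio of the spike-in controls was 0.38 and 0.62 there against -0.36. The treated reactivated and unstimulated Th2 arrays overlapped, and by Cy3 the reactivated Th2 signal was 38.1-fold lower at 10 µM and 62.7-fold lower at 1 µM than with DMSO.

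Il13 behaved in the same way after reactivation. Its log2 ratio at 1 and 10 µM was 0.60 and 0.81 in reactivated Th2 cells (4.84 with DMSO) and 0.42 and 0.23 in reactivated Th1 cells (3.70 with DMSO). The unstimulated values were 0.75 and 0.81 in Th2 and 0.30 and 0.22 in Th1 cells. The reactivated arrays lay within 0.15 of the unstimulated array of the same cell type and dose, and in Th2 cells the Cy3 signal at 10 µM was 33.7-fold below DMSO.

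Il5 fell in reactivated Th2 cells from 3.66 to 0.56 and 0.69 at 1 and 10 µM, and Cy3 was 10.3-fold and 9.51-fold lower. The unstimulated Th2 arrays read 0.69 and 0.92, against 0.10 with DMSO, and the 4 Th1 arrays 0.11 to 0.36, not well above background. Before scaling, Il5 Cy3 on those Th2 arrays was 43 and 50 units against 31 with DMSO. The spike-in median there was 0.38 and 0.62 against -0.36, so this order depends on the scaling. Il24 read 0.49 in reactivated Th2 cells at 10 µM, against 2.83 with DMSO. It was not well above background there at 1 µM, where Cy3 was at least 13.9-fold lower than with DMSO, nor on any of the 4 Th1 arrays, where the loss in reactivated cells was at least 2.12-fold at 1 µM and at least 2.16-fold at 10 µM. The unstimulated Th2 arrays read -0.04 and 0.15 for Il24, against -0.26 with DMSO, although Cy3 before scaling was 32 and 37.5 units against 42.

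Il10 kept a low but measurable signal under flavopiridol, on all 8 arrays. Its log2 ratio was 0.75 and 0.64 in reactivated Th1 cells at 1 and 10 µM (2.85 with DMSO), 0.63 and 0.64 in unstimulated Th1 cells, 0.32 and 0.44 in reactivated Th2 cells (2.33 with DMSO) and 0.26 and 0.44 in unstimulated Th2 cells. The reactivated and unstimulated arrays overlapped in Th2 cells, and in Th1 cells both reactivated arrays read slightly above both unstimulated ones. The loss against reactivated DMSO cells at 10 µM was 4.26-fold in Th1 and 3.35-fold in Th2 cells.

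The test of flavopiridol over all 4 contexts (2 cell types in 2 states) called few members. At 10 µM 0 of 5 passed where 48.9% of genes did, with Il13 nearest (-1.94 ± 0.73, adjusted p = 0.0536, unadjusted p = 0.0266). At 1 µM 1 of 5 passed, Il4 (-2.15 ± 0.80, adjusted p = 0.0495), where 51.7% did. That call was lost without reactivated Th1 (-1.91, adjusted p = 0.178), unstimulated Th2 (-2.67, adjusted p = 0.0530) or reactivated Th2 arrays (-1.13, adjusted p = 0.163). Without the unstimulated Th1 arrays Il13 passed at 1 and 10 µM (-2.62, adjusted p = 0.0297, and -2.59, adjusted p = 0.0342), and without the unstimulated Th2 arrays likewise (-2.48, adjusted p = 0.0464, and -2.51, adjusted p = 0.0473). Scaling mattered here: the median of all genes at 10 µM was -0.22 after loess and -1.65 when the spike-in controls set the scale, and then 4 of 5 members passed at each dose (Il4 -2.48, Il13 -2.06, Il24 -1.80 and Il10 -1.28 at 10 µM), where 91.4% of all genes passed at 10 µM and 86.5% at 1 µM. Of these, Il10 fell less than the median gene.

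The difference of the 10 µM effect between states was tested directly. It was larger in reactivated than in unstimulated cells for Il4 (-3.74 ± 0.67, adjusted p = 0.0133), Il13 (-3.62 ± 0.33, adjusted p = 0.0022), Il10 (-2.29 ± 0.22, adjusted p = 0.00235) and Il24 (-2.08 ± 0.54, adjusted p = 0.0430), each in both cell types. Unstimulated Th1 cells with DMSO were not well above background at 6 hr for Il4, Il13 and Il24, so they could not be measured to fall there. Il10 read only 0.38 and 0.22 in unstimulated Th1 and Th2 cells with DMSO and Il24 -0.26 in Th2 cells, which also bounds how far either could fall. These were 4 of 5 members against 15.8% of genes, and Il5 missed at -2.24 ± 0.86 (adjusted p = 0.126). Leaving out either unstimulated context took every one of these calls away, with values kept between -3.80 and -2.06 and adjusted p of 0.0503 to 0.257, while the share of all genes called fell to 1.04% without unstimulated Th1 and 0% without unstimulated Th2 arrays. Without reactivated Th2 arrays Il24 missed at -1.43 (adjusted p = 0.0573), and without reactivated Th1 arrays Il5 passed at -3.55 (adjusted p = 0.00846).

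The effect within reactivated cells alone was added after the values were seen. At 10 µM the log2 change was -3.75 for Il13 (adjusted p = 7.11e-05), -3.63 for Il4 (adjusted p = 0.000866), -2.05 for Il10 (adjusted p = 0.000112) and -1.69 for Il24 (adjusted p = 0.00895), which made 4 of 5 against 50.9% of genes. Il5 gave -1.66 (adjusted p = 0.0541), and -2.97 without the reactivated Th1 arrays (adjusted p = 0.00265). At 1 µM all 5 passed, against 53.9% of genes, with Il5 at -1.68 (adjusted p = 0.0491). Il5 lost that call without either unstimulated context (adjusted p = 0.109 each) and without reactivated Th2 arrays (-0.27, adjusted p = 0.463). The 2 doses were not told apart for any member: 0 of 5 passed at adjusted p and 0 at unadjusted p under 0.05, where 1.87% of genes passed, with intervals as wide as -1.43 to 2.20 for Il4. Nor did the effect differ by cell type for any member (0 of 5 adjusted and 0 unadjusted, 0.0161% of genes), although the interval for Il4, -5.22 to 3.56, allows large differences.

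**Figure D3:**
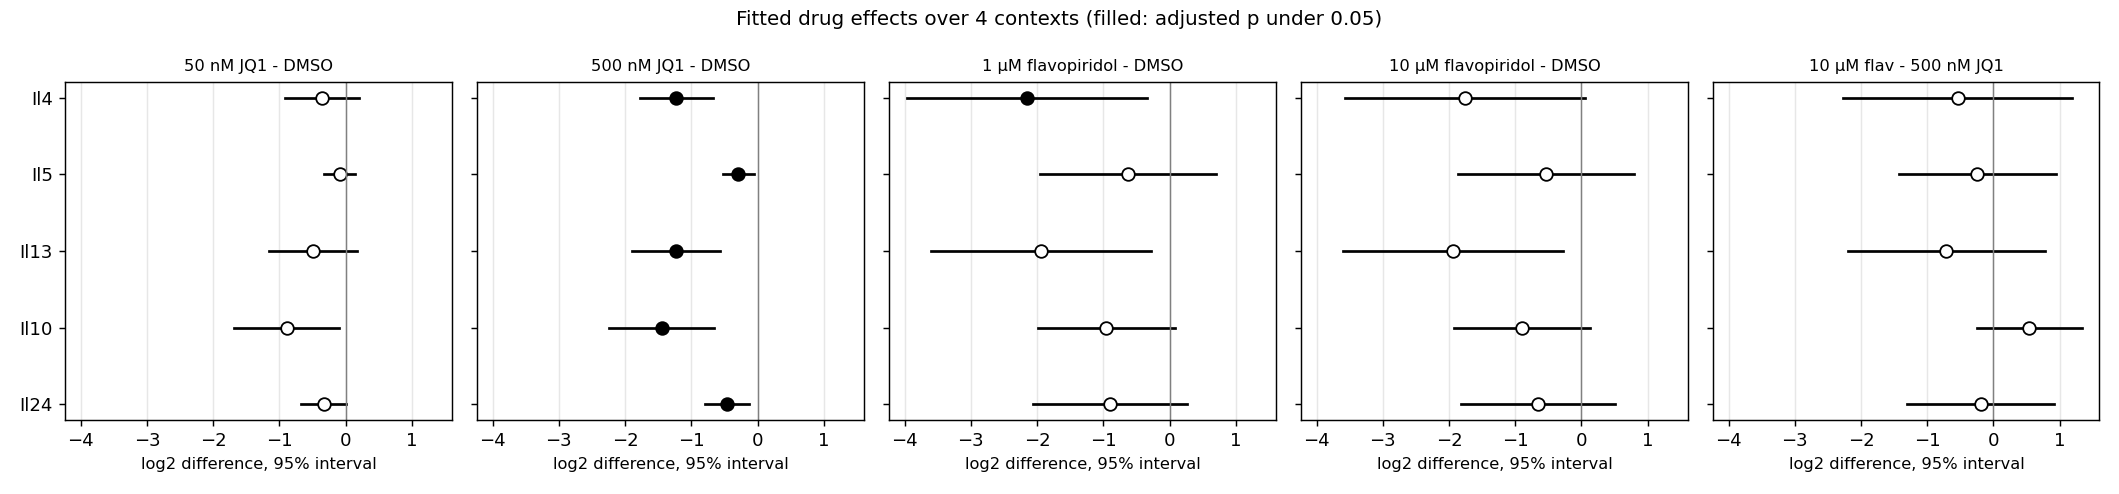
Fitted log2 differences with 95% intervals for the 5 genes, 1 panel for each drug and dose against DMSO over the 4 contexts at 6 hr, and 1 for 10 µM flavopiridol against 500 nM JQ1. Filled points passed an adjusted p of 0.05. All 5 genes are filled and left of 0 at 500 nM JQ1, while intervals for flavopiridol are wide and only Il4 at 1 µM is filled.

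All 5 members read lower with JQ1 in reactivated cells of both types, and Il10 was no longer well above background at 500 nM in both. In reactivated Th1 cells at 6 hr the Il10 log2 ratio was 2.85 with DMSO, 1.26 at 50 nM and 0.06 at 500 nM. In reactivated Th2 cells it was 2.33, 0.76 and 0.01, and in reactivated Th1 cells at 24 hr 3.56 with DMSO and 0.03 at 500 nM. Il10 was not well above background on any of the 6 arrays at 500 nM. By Cy3 the 50 nM dose lowered it 2.87-fold in Th1 and 2.77-fold in Th2 cells. At 500 nM the loss was at least 5.73-fold in Th1 and at least 3.95-fold in Th2 cells, and at least 10.1-fold in Th1 cells at 24 hr.

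Il4 persisted under JQ1. Its log2 ratio in reactivated Th2 cells was 8.02 with DMSO, 7.62 at 50 nM and 6.96 at 500 nM, and in unstimulated Th2 cells 3.52, 3.08 and 1.67. In reactivated Th1 cells it was 3.07, 2.52 and 1.15 at 6 hr, and 4.49 with DMSO and 2.39 at 500 nM at 24 hr, while every unstimulated Th1 array, with DMSO or JQ1 at either time, was not well above background. At 500 nM the Cy3 signal was 3.14-fold lower in reactivated Th2, 3.69-fold lower in unstimulated Th2 and 3.23-fold lower in reactivated Th1 cells, and 3.87-fold lower at 24 hr.

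Il13 in reactivated cells read 4.84, 4.54 and 3.31 in Th2 and 3.70, 2.92 and 1.27 in Th1 cells with DMSO, 50 nM and 500 nM, and 4.60 and 2.19 in Th1 cells at 24 hr with DMSO and 500 nM. Its unstimulated values with JQ1 were 0.04 to 0.36, none well above background. The Cy3 loss at 500 nM was 6.24-fold in Th2 and 5.30-fold in Th1 cells, and 7.34-fold in Th1 cells at 24 hr.

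Il5 and Il24 were the least affected in reactivated Th2 cells. Il5 read 3.66, 3.44 and 2.94 with DMSO, 50 nM and 500 nM there, and Il24 2.83, 2.66 and 2.48, with Cy3 losses at 500 nM of 1.91-fold and 1.74-fold. The Cy3 folds given for JQ1 depend on the scaling. Before it, Cy3 in reactivated Th2 cells was 777 units with DMSO and 326 at 500 nM for Il5. For Il24 it was 1426.5 and 611, and for Il4 18834 and 4427. The spike-in median was 0.02 at 500 nM against -0.82 with DMSO there, and 0.90 against -0.56 in reactivated Th1 cells at 6 hr. In reactivated Th1 cells Il5 read 0.45, 0.43 and 0.16 and Il24 0.81, 0.11 and -0.37, close for Il24 at 500 nM to the -0.48 of unstimulated DMSO cells. The unstimulated arrays with JQ1 read -0.15 to 0.05 for Il5 and -0.64 to -0.48 for Il24, and at 24 hr reactivated Th1 cells read 0.11 and -0.27 at 500 nM.

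Over the 4 contexts at 6 hr, 500 nM JQ1 lowered all 5 members, where 47.5% of genes passed. Neither the DMSO nor the JQ1 array was above background for Il5 in unstimulated cells of either type, or for Il4, Il13 and Il24 in unstimulated Th1 cells, so these contexts could show no fall. The log2 change was -1.44 ± 0.36 for Il10 (adjusted p = 0.00716), -1.23 ± 0.30 for Il13 (adjusted p = 0.00642), -1.22 ± 0.25 for Il4 (adjusted p = 0.00241), -0.46 ± 0.15 for Il24 (adjusted p = 0.0286) and -0.29 ± 0.11 for Il5 (adjusted p = 0.0422). The median gene gave -0.07, and -0.55 when the spike-in controls set the scale. By the scanner software's ratio Il13 (adjusted p = 0.218), Il24 (0.103) and Il5 (0.550) missed, where 46.8% of genes passed. With only the 8 DMSO and 500 nM arrays Il24 (adjusted p = 0.0951) and Il5 (0.1235) missed, where 36.7% of genes passed. With no block none of the 5 passed, where 6.98% of genes did. Calls were lost without reactivated Th2 arrays for Il10 (-1.15, adjusted p = 0.0538) and Il24 (-0.50, adjusted p = 0.0716), without reactivated Th1 arrays for Il5 (-0.29, adjusted p = 0.114) and Il24 (-0.22, adjusted p = 0.113), without unstimulated Th2 arrays for Il24 (-0.51, adjusted p = 0.0584) and without unstimulated Th1 arrays for Il5 (-0.35, adjusted p = 0.0550). At 50 nM 0 of 5 passed (1 at unadjusted p under 0.05, Il10, -0.89), and 0.333% of genes passed. Between the doses Il4 passed (-0.87 ± 0.25, adjusted p = 0.0231), 1 of 5 against 31.3% of genes. It missed without reactivated Th1 (-0.71, adjusted p = 0.0986), unstimulated Th2 (-0.69, adjusted p = 0.102) or reactivated Th2 arrays (-0.94, adjusted p = 0.0677), and Il13 passed without unstimulated Th1 arrays (-1.02, adjusted p = 0.0294).

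The JQ1 effect was stronger in reactivated than in unstimulated cells for Il10, by -2.22 ± 0.18 (adjusted p = 0.000687), and for Il13, by -1.50 ± 0.31 (adjusted p = 0.0170). These were 2 of 5 members, against 10.1% of genes, and Il4 gave -0.53 with an interval of -1.63 to 0.56. The result depends on the scaling. With spike-in centring all 5 passed (Il4 at -1.48, adjusted p = 0.00035), but so did 78.2% of genes, and the median gene gave -1.02. By the scanner software's ratio neither Il10 nor Il13 passed, where 3.11% of genes did: Il10 gave -3.05 (adjusted p = 0.0527) and Il13 turned to 2.00 (adjusted p = 0.375). The Il13 call was lost without unstimulated Th1 (-1.08, adjusted p = 0.123) or reactivated Th1 arrays (-1.04, adjusted p = 0.110), and Il24 passed without reactivated Th2 arrays (-1.02, adjusted p = 0.0328). In unstimulated DMSO cells Il10 read 0.22 to 0.38 and Il13 0.23 to 1.07, which bounds how far either could fall there. The effect of 500 nM in reactivated cells alone, added after the values were seen, passed for all 5 against 45.4% of genes: -2.55 for Il10, -1.98 for Il13, -1.49 for Il4, -0.76 for Il24 and -0.51 for Il5. Il10 was not well above background on either reactivated array at 500 nM, so its value is not an exact size. The median gene gave -0.08 in this fit, and -1.06 with spike-in centring. Without reactivated Th1 arrays, Il4 (-1.06, adjusted p = 0.143) and Il24 (-0.34, adjusted p = 0.158) missed. By the scanner software's ratio Il10 alone passed, where 41.3% of genes did. Il13 gave -0.03 (adjusted p = 0.980), Il5 -0.25 (adjusted p = 0.702), Il4 -0.92 (adjusted p = 0.232) and Il24 -1.36 (adjusted p = 0.0935) by that ratio. At 50 nM in reactivated cells Il10 passed alone (-1.58 ± 0.13, adjusted p = 0.00442), 1 of 5 where 0.302% of genes did. With either reactivated context left out it kept its size (-1.56 and -1.59) and missed the threshold (adjusted p = 0.0689 and 0.0958). By the scanner software's ratio it also missed (-1.52, adjusted p = 0.251), where 0.0155% of genes passed. No member differed between cell types in its response (0 of 5 adjusted and 0 unadjusted, 0% of genes), with intervals such as -1.73 to 0.79 for Il4. For JQ1 in Th1 cells, drug and DMSO arrays shared a slide, and in Th2 cells slide and drug cannot be told apart, as for flavopiridol in both cell types. With the Th1 arrays alone, an alternative added after the values were seen, 500 nM gave -1.62 for Il10 (adjusted p = 0.0516), -1.25 for Il13, -0.99 for Il4 and -0.59 for Il24, and 0 of the 4 tested passed, where 23.5% of genes did. Il5 was too dim there to be tested.

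**Figure D4:**
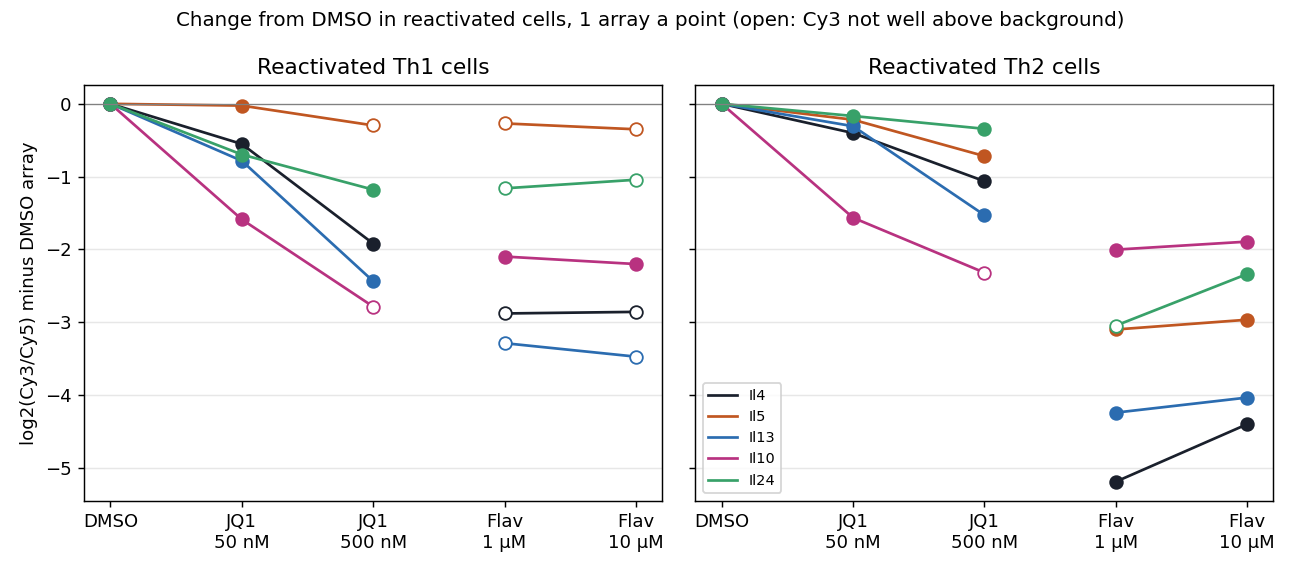
Change in log2 ratio against the DMSO array of the same cell type for the 5 genes in reactivated cells at 6 hr, by drug and dose, with single arrays as points. At 50 nM JQ1 all 5 genes lie below 0, with Il10 lowest in both cell types (-1.59 and -1.56), and under flavopiridol in Th2 cells Il4 and Il13 lie lowest.

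Set against each other over the 4 contexts, 10 µM flavopiridol and 500 nM JQ1 were not told apart for any member (0 of 5 adjusted and 0 unadjusted), where 56.8% of genes differed. The contexts went in opposite directions: Il4 was 12.1-fold lower with flavopiridol than with JQ1 in reactivated Th2 cells by Cy3, and 3.24-fold higher in unstimulated Th2 cells. Il13 was 5.41-fold, Il5 4.98-fold and Il24 4.98-fold lower with flavopiridol in reactivated Th2 cells. Il10 was higher with flavopiridol in 4 of 4 contexts (0.54 ± 0.37, adjusted p = 0.232), at least 1.35-fold in reactivated Th1 and at least 1.18-fold in reactivated Th2 cells. It passed without background correction (1.08, adjusted p = 0.044) and by the scanner software's ratio (3.44, adjusted p = 0.00047). These are different drugs at different doses. The contrast sets them against each other directly, and in each cell type their arrays lay on different slides.

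Against unstimulated DMSO cells, the drugged reactivated cells show what was left of the response. In Th2 cells at 500 nM JQ1, Il4 was 11.1-fold, Il24 9.75-fold and Il13 4.17-fold above unstimulated DMSO cells by Cy3, and Il5 at least 6.71-fold above. With 10 µM flavopiridol Il4 and Il13 were 1.09-fold and 1.30-fold below that level, Il24 1.96-fold above and Il10 1.13-fold above. These folds depend on the scaling: before it, Cy3 was 51 against 42 units for Il24 and 36 against 34 for Il10, and the spike-in median was 0.58 on the flavopiridol array against -0.36 with DMSO. Il10 in reactivated cells at 500 nM JQ1 was below the level of unstimulated DMSO cells, by at least 1.14-fold in Th1 and at least 1.05-fold in Th2 cells.

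Between 6 and 24 hr, reactivated Th1 cells gained Il4 2.52-fold, Il13 2.47-fold and Il10 1.71-fold by Cy3 with DMSO, across slides and with no replicate, while the Il5 ratio was 0.22 higher (log2) and Il24 fell 1.35-fold. With 500 nM JQ1, Il4 gained 2.10-fold and Il13 1.78-fold, and Il10 was not well above background at either time.

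Other Th2 effector genes were set beside the members. Of 16 tested, 9 rose and 1 fell on reactivation in Th2 cells, where 61.2% of all genes passed. Between reactivated Th2 and Th1 cells 8 were higher and 1 lower, where 28.8% of all genes passed, with a median of 0.23 against 0.00 over all genes. Il9, another Th2 product, rose by 5.31 in Th2 cells and gave 0.34 in Th1 cells (adjusted p = 0.27), while Il3 (7.91 and 7.25) and Csf2 (6.05 and 6.08), both at the far end of the chromosome 11 cytokine cluster, rose in Th1 and Th2 cells. In reactivated cells 500 nM JQ1 lowered 10 and raised 3 of 16 (median -0.53 against -0.08, with 45.4% of all genes called), among them Csf2 (-1.56), Il31 (-1.33), Il3 (-1.05) and Il9 (-0.83). The receptor gene Il1rl1 fell most of them (-3.26), and the growth factor gene Areg gave 0.11 (adjusted p = 0.81). With 10 µM flavopiridol 6 of 13 fell and 0 rose (median -2.53 against -0.16), a share below the 50.9% of all genes called, with Il3 at -8.13, Csf2 at -7.10, Il31 at -5.49 and Areg at -5.47.

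The other genes of both loci moved in both directions. Of 13 neighbours at the Il4 locus, 4 rose and 7 fell on reactivation in Th2 cells, and 2 were higher and 0 lower in reactivated Th2 cells (Septin8 1.23, Pdlim4 1.52), where 61.2% and 28.8% of all genes passed. Rad50, which lies between Il5 and Il13, fell by 0.65 on reactivation in Th2 cells and gave 0.03 with 500 nM JQ1 in reactivated cells (adjusted p = 0.87). Of 9 neighbours at the Il10 locus 4 rose and 3 fell on reactivation in Th2 cells. Among them Il19, another IL-10 family gene, rose by 0.67 in Th2 cells, and Mapkapk2, a kinase gene, rose by 1.57, and 500 nM JQ1 in reactivated cells lowered them (-0.54 and -0.39).

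Regulators were followed to set the cytokines beside them, and their counts are to be read against the 45.4% of all genes called for 500 nM JQ1 and the 50.9% for 10 µM flavopiridol in reactivated cells. Of 10 known Il10 regulators, 500 nM JQ1 in reactivated cells lowered 3, Batf (-1.80), Ahr (-0.82) and Ikzf1 (-0.77), and raised 3, Ets1 (1.33), Maf (0.67) and Nfil3 (0.52). Of 18 Th2 regulators it lowered 7 and raised 4. Gata3 gave 0.21 (adjusted p = 0.18), while Gfi1 (-1.22) and Stat6, the IL-4 signal transducer (-0.78), fell. With 10 µM flavopiridol 11 of 18 Th2 regulators fell and 0 rose, including Irf4 (-5.01), Stat5a (-3.55) and Gata3 (-2.89). Of 20 receptor and signalling genes, 9 fell and 5 rose with 500 nM JQ1 in reactivated cells. Il10rb, a chain of the IL-10 receptor, fell by 1.00 and Il10ra, the other chain, rose by 0.57, and Il4ra gave -0.28 (adjusted p = 0.14). Of 10 repressors and Th1 regulators, 3 fell and 2 rose, Tbx21 by -1.99 among the former. Of 9 Th1 and other T cell cytokines, 8 fell and 1 rose, with Il21 (-2.06) and Lta (-2.01) lowest and Tgfb1 higher (0.67), and Il22, an IL-10 family member, fell by 0.73.

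The members differed in which genes shared their pattern across the 24 arrays, given here as a description over arrays that share the reference, cell types and drugs. Il5 and Il24 were most alike among members by Pearson's r (0.971) and Spearman's rho (0.926). Least alike were Il5 and Il10 by r (0.288) and Il4 and Il10 by rho (0.38). Of 12661 candidate genes, Il9 (r = 0.977), the receptor gene Calcrl (0.964) and Rnd3 (0.952) were nearest to Il5, and Calcrl (0.956), Il9 (0.946) and the chemokine gene Ccl22 (0.924) to Il24. Il4 was nearest to Shtn1 (0.952), Fcer2a (0.925), the low-affinity IgE receptor, and Ccl22 (0.908). Il13 was nearest to Dennd3 (0.979), Mst1r (0.977) and Mlana (0.964), and Il10 to Upb1 (0.914), Mcoln2 (0.895) and Il22 (0.888).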

How the data were processed

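RNA from T helper cells (Cy3) and naive CD4+ cells (Cy5) was co-hybridised to 24 arrays. The deposited scanner files held spot intensity values and a log10 ratio of Cy5 over Cy3, extracted with Agilent Feature Extraction 10.7.1.1. A table of log2 values was deposited as well, whose normalization is not given in the sources used here and which was used as an alternative (r = 0.981 to 0.996 with the ratios used here). Median intensities were background corrected (normexp, offset 50) and normalized by loess within each array, outlier spots were dropped, and the brightest probe stood for each gene. Differences were tested with limma 3.58.1 in R 4.3.3 on log2(Cy3/Cy5), with pair, context or treatment as a block, over genes with detected Cy3 (well above background) on 3 or more arrays of a comparison. Calls used a Benjamini-Hochberg adjusted p under 0.05. The code was tested on simulated data. Folds of single arrays came from Cy3 after Aquantile scaling. Where the dimmer array was not well above background, the fold is at least that against the higher of its own signal and the lowest signal well above background there. With 1 array per condition, p-values measure the spread between contexts or treatments, and the number of arrays limits precision. The genes described are the 5 members, genes of fixed lists and locus neighbours, and the 5 genes most correlated with each member among those well above background on at least 6 arrays. Members and lists were chosen with earlier results of these data known. Other normalizations, filters and blocks, and leaving out each context, are given in the closing section. Values of 1 marker gene are not reported here.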

Additional observations from a re-analysis of the deposited data

Results flagged for a closer look

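Several effects differed between cell types or states by a direct test in limma. The fitted reactivation effect was larger in Th2 than in Th1 cells for 3 members: Il4 by 2.62, Il5 by 2.90 and Il24 by 2.42 (log2). None of these passed without the 50 nM JQ1 arrays or by the scanner software's ratio, where Il4 turned to -2.98. Il4 on the unstimulated Th1 arrays and Il5 on the unstimulated arrays of both types were not well above background. The same held for Il24 in unstimulated Th1 cells with DMSO at 6 hr and 500 nM JQ1, so these sizes are not exact. The effect of 10 µM flavopiridol differed between reactivated and unstimulated cells for Il4 (-3.74), Il13 (-3.62), Il10 (-2.29) and Il24 (-2.08). None of these passed with either unstimulated context left out, Il4 and Il24 missed under median and spike-in centring, and Il4 and Il13 missed by the scanner software's ratio. In unstimulated Th1 cells with DMSO at 6 hr, Il4, Il13 and Il24 were not well above background. The effect of 500 nM JQ1 differed between the states for Il10 (-2.22) and Il13 (-1.50), but neither passed by the scanner software's ratio, where Il13 turned to 2.00.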

How the results depend on the processing

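Each comparison was repeated under other settings, and the number of the 5 members called was compared. Of 49 member calls, 48 were kept in the authors' value table, 47 with the mean of all probes, 46 without background correction, 46 with slide as a random block, 44 by Cy3 alone, 44 with no filter on dim probes, 43 with each spike-in scaling, 42 with median centring, 28 by the scanner software's ratio and 25 with no block. With no block, members called fell from 5 to 3 for Th2 against Th1 reactivated, from 1 to 0 for 1 µM flavopiridol, from 4 to 2 for the flavopiridol difference between states, from 5 to 3 for 1 µM flavopiridol in reactivated cells, from 5 to 0 for 500 nM JQ1, from 1 to 0 between JQ1 doses, from 2 to 0 for the JQ1 difference between states, from 5 to 1 for 500 nM and from 1 to 0 for 50 nM JQ1 in reactivated cells, where 5.88%, 44.3%, 5.79%, 40.1%, 6.98%, 1.3%, 0.031%, 14% and 0% of all genes passed in that order. It also ended 1 call each for reactivation without drug (Il4, adjusted p = 0.0605), in Th1 cells (Il5, 0.0953) and in Th2 against Th1 cells (Il4, 0.123), and for 10 µM flavopiridol in reactivated cells (Il4, 0.206). By the scanner software's ratio, which has no offset, they fell from 3 to 0 for reactivation in Th2 against Th1 cells, from 5 to 3 for Th2 against Th1 reactivated, from 1 to 0 for 1 µM flavopiridol, from 5 to 2 for 500 nM JQ1, from 2 to 0 for its difference between states, and from 5 to 1 and 1 to 0 for 500 and 50 nM JQ1 in reactivated cells, and rose from 0 to 1 for flavopiridol against JQ1 (3.92%, 25.5%, 53.3%, 46.8%, 3.11%, 41.3%, 0.0155% and 59.6% of all genes). That ratio also reversed Il4 in reactivation in Th2 against Th1 cells (-2.98) and Il13 in the JQ1 difference between states (2.00). With spike-in centring, members called became 4 and 4 for 10 and 1 µM flavopiridol, 2 for its difference between states, 3 between JQ1 doses and 5 for the JQ1 difference between states, where 91.4%, 86.5%, 2.5%, 42.6% and 78.2% of all genes passed in that order. With the spike-in shift after loess they became 2 for reactivation in Th1 cells, 3 and 3 for 10 and 1 µM flavopiridol, 1 for its difference between states, 3 between JQ1 doses and 5 for the JQ1 difference between states (18.1%, 65.2%, 54.6%, 1.1%, 28% and 85.5% of all genes), and Il5 on reactivation in Th1 cells (-0.047) and Il10 in Th2 against Th1 reactivated (0.032) reversed. Median centring gave 1 and 2 for 10 and 1 µM flavopiridol and 2 for its difference between states (68.9%, 65.4% and 7.68% of all genes). The 1 µM call was lost (0) by Cy3 alone, without background correction, with no filter, with the mean of all probes and with the slide block (53.3%, 53.5%, 31.4%, 50.3% and 37.1% of all genes). Cy3 alone and the authors' table each gave 2 for Th2 against Th1 unstimulated (38.5% and 38.1% of all genes). Without background correction the JQ1 difference between states had 1 and flavopiridol against JQ1 had 1 (7.16% and 58.3% of all genes). With 8 arrays (higher dose and DMSO), 500 nM JQ1 had 3 and its difference between states 1 (36.7% and 2.08% of all genes). With Th1 arrays only, an alternative chosen after seeing the data, 500 nM JQ1 and the JQ1 doses each had 0 of 4 tested (23.5% and 6.47% of all genes), 1 µM flavopiridol had 0 of 1 tested (Il10, since Il4 was too dim there, 39.6% of all genes), and it could not be fitted for the differences between states. The cause was not tested for any of these.

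Leave-one-out over pairs, treatments or contexts gave these ranges of members called, with the range of the share of all genes called in parentheses. Reactivation without drug had 3 to 4 (37.6% to 45.7%), in Th1 cells 2 to 5 (27.4% to 58%) and in Th2 cells 4 to 5 (43.3% to 66.6%). In Th2 against Th1 cells reactivation had 0 to 4 (0.103% to 19.5%). Th2 against Th1 had 1 to 2 unstimulated (18.5% to 42.1%) and 4 to 5 reactivated (12.7% to 29.1%). Flavopiridol had 0 to 1 at 10 µM (36.8% to 45.2%), 0 to 2 at 1 µM (40.5% to 48.5%) and 0 to 5 for its difference between states (0% to 13.1%). In reactivated cells flavopiridol had 4 to 5 at each dose (35.8% to 43.4% at 10 µM and 37.9% to 47% at 1 µM). JQ1 had 2 to 4 at 500 nM (38.3% to 42.5%), 0 to 2 between doses (21.5% to 24.9%) and 1 to 3 for its difference between states (1.57% to 4.39%). In reactivated cells JQ1 had 3 to 5 at 500 nM (28.2% to 43.8%) and 0 to 1 at 50 nM (0% to 0.0158%).

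Over all genes, the scaling moved the share of calls that were higher. For 10 µM flavopiridol it was 31.6% with loess, 3.33% after median centring, 0.22% after centring on spike-ins and 3.24% after the spike-in shift, and for 500 nM JQ1 it was 37.2%, 11.3%, 1.98% and 1.94%. For Th2 against Th1 reactivated it was 47.5%, 75.6%, 85% and 90.3%. The count of genes called went from 6088 to 11385 for 10 µM flavopiridol with spike-in centring and from 6141 to 902 for 500 nM JQ1 with no block. With 1 array per condition, signals near background and an unclear Th2 DMSO time, the sizes of single changes have no replicate error.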
